A study of Mus musculus and Mus musculus
Rattus norvegicus with 30 samples.

Results

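The regions described here were 5033 ATAC peaks that overlapped a Cdx2 ChIP peak in mouse embryonic stem cells (mESCs) and whose accessibility stayed within 2-fold after mouse Cdx2 was induced. They were chosen from 122350 ATAC peaks. A peak qualified if it lay on chromosomes 1 to 19, if the reads of both ATAC libraries summed to at least 40 after scaling to the mean library total, and if the log2 ratio of mCdx2-OE over WT, with 1 added to both values, lay from -1 to 1. It also had to share at least 1 bp with a Cdx2 peak. The ATAC reads and the overlap therefore chose the peaks, and both are given below as a description. Of the 119304 ATAC peaks on chromosomes 1 to 19, 83368 reached the sum of 40, and 12075 of these held a Cdx2 peak. The 5033 bound unchanged peaks made up 41.7% of the 12075 bound peaks, 6527 (54.1%) opened by more than 2-fold and 515 (4.27%) closed. Another 5367 bound peaks were below the sum of 40, 977 of them within the 2-fold limits, and were not included. Over all 83368 peaks, 66.3% stayed within 2-fold, 12.8% opened and 20.9% closed.

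Cdx2 is a homeobox transcription factor of the caudal family that binds AT-rich sites. It marks the trophectoderm, the outer layer of the early embryo that gives rise to the placenta, and later patterns the posterior body and the intestinal epithelium. ATAC-seq reads mark DNA that is open to a transposase, and ChIP-seq reads mark DNA that co-precipitated with the protein. An overlap of a Cdx2 peak with an ATAC peak therefore marks a place where the factor was detected near open chromatin, without a statement on whether it acted there.

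The study compared mouse Cdx2 (mCdx2) and rat Cdx2 (rCdx2), which were expressed as Flag-tagged proteins from lentiviral transgenes under a doxycycline (DOX) inducible Tet-On system. Cells were collected 48 h after DOX according to the methods, and the control cells are labelled WT, while the study describes them as cells without DOX. ATAC-seq covered 1 WT and 1 mCdx2-OE library of mESCs. ChIP-seq with an antibody to Flag covered 1 mCdx2-OE and 1 rCdx2-OE library of mESCs, and 1 of each in RMES cells, hybrid stem cells with a mouse and a rat chromosome set, of which only reads given to the mouse genome were used. RNA-seq of mESCs covered 2 libraries each of WT, mCdx2-OE and rCdx2-OE, beside 7 mutants of rCdx2 that entered the model fit only. The WT ATAC counts were matched to their library by a column name that holds no Cdx2, and one label of the rCdx2 ChIP library names mCdx2 while its title and genotype name rCdx2. Peaks of each assay were called on merged reads, so a peak was not called in each library alone. With 1 ATAC or ChIP library per condition no test between conditions was possible for these assays, and the intervals given are 95% Wilson intervals of a share, which cover counting error only.

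The ATAC libraries held 6109353 reads (WT) and 8277850 reads (mCdx2-OE) in peaks, the mESC ChIP libraries 6223794 (mCdx2) and 5550846 (rCdx2), and the RMES ChIP libraries 4357448 (mCdx2) and 3387074 (rCdx2). The RNA libraries held 12698443 to 94686029 counts, with the 2 WT libraries deeper than all others. Cdx2 RNA was at 1.36 and 1.21 normalised CPM, which corrects for library size, in the WT libraries, at 97.9 and 127 CPM in the mCdx2-OE libraries and at 70.4 and 67.0 CPM in the rCdx2-OE libraries. The stem cell markers Pou5f1, Sox2, Nanog, Zfp42 and Esrrb were all present in WT, from 127 CPM for Zfp42 to 1470 CPM for Pou5f1.

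The sequences below show what such regions looked like. The first 3 are 300 bp at the centre of the ATAC peak for the bound unchanged peaks with most ChIP reads among those that held the Cdx motif TTTATNG there. Sequences are those of mm10 (GRCm38), plus strand, and capitals mark the Cdx motif on either strand. The first lies in an exon of a noncoding transcript of Cep295, the second in an intron of the noncoding gene Gm49128, and the third between genes, with Hes1 as the nearest protein-coding gene.
chr9:15318139-15318438: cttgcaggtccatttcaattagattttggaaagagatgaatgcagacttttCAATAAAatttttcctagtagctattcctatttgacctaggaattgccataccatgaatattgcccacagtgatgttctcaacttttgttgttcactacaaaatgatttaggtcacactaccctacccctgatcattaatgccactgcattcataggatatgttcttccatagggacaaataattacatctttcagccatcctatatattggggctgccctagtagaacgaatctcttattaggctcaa
chr15:17049203-17049502: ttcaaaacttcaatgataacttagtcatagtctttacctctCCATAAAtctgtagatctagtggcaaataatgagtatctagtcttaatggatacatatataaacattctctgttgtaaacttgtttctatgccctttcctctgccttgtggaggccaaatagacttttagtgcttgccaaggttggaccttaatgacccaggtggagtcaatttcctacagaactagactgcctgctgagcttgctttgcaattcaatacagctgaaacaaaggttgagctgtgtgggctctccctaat
chr16:29882987-29883286: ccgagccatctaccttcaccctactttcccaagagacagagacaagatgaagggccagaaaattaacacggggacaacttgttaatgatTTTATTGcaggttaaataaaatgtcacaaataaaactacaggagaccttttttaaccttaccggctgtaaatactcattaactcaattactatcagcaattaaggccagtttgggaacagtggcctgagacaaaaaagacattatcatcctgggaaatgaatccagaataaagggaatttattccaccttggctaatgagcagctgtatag
The chromosome 9 peak, 3892 bp long, had 246 scaled ATAC reads in WT and 252 in mCdx2-OE (log2 ratio 0.03) and 926 scaled ChIP reads, 464 with mCdx2 and 461 with rCdx2. The centre of its Cdx2 peak was 1438 bp away from the ATAC centre, and the 300 bp there held no Cdx motif. The chromosome 15 peak had 40.0 ATAC reads in WT and 78.2 in mCdx2-OE (log2 ratio 0.95), close to the upper limit, and 819 ChIP reads. The chromosome 16 peak had 351 ATAC reads in WT and 328 in mCdx2-OE (log2 ratio -0.09), with 796 ChIP reads whose centre was 65 bp from the ATAC centre. Each of the 3 also held a Cdx2 peak in RMES cells.

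A pair of windows from a single region shows how far the Cdx2 peak could lie from the middle of the open region. The bound unchanged peak chr10:86769173-86773925, 4753 bp long and in introns of Ttc41 and Gm49358, had no Cdx motif in its central 300 bp.
ATAC centre, chr10:86771399-86771698: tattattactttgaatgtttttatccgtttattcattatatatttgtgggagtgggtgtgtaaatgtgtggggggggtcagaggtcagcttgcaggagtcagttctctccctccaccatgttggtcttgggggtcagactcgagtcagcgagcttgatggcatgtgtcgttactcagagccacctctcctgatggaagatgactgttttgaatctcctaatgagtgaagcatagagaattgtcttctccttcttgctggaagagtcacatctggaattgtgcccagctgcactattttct
Cdx2 ChIP centre, chr10:86773186-86773485: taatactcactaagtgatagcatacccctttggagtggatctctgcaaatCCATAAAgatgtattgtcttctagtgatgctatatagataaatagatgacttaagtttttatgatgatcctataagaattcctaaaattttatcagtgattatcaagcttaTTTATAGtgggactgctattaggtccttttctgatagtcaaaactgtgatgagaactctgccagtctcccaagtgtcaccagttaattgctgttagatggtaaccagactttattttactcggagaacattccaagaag
The centre of its Cdx2 peak was 1787 bp away and held 2 Cdx motifs. This region had 1278 scaled ChIP reads, 656 with mCdx2 and 623 with rCdx2. It had 287 ATAC reads in WT and 375 in mCdx2-OE, a log2 ratio of 0.38 with a 95% exact binomial interval of 0.15 to 0.62. This pair of windows was chosen after the values were seen.

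The next windows are those of the bound unchanged peaks with most ATAC reads among those that held the CTCF motif (CCA, any 2 bases, AG, any 2 bases, GGC) at the centre, with the motif in capitals. CTCF is a zinc-finger protein that marks chromatin loop anchors and insulators.
chr7:73399565-73399864: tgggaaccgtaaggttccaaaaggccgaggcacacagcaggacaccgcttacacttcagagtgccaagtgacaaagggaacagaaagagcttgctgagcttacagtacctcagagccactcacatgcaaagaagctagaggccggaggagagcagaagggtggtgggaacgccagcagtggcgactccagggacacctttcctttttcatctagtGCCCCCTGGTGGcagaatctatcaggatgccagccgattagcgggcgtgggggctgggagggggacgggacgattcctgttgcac
chr10:61417506-61417805: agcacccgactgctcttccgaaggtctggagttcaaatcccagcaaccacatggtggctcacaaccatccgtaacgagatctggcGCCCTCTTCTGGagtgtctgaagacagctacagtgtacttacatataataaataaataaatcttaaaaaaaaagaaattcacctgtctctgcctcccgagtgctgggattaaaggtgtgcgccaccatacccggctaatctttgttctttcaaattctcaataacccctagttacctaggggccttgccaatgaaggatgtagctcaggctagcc
The first lies in an intron of Rgma, in a peak with 787 ATAC reads in WT and 866 in mCdx2-OE (log2 ratio 0.14). The second lies upstream of Nodal, in a peak with 800 ATAC reads in WT and 493 in mCdx2-OE (log2 ratio -0.70). Of its 31-base stretches, 65.6% occurred more than once in the genome, so reads there could belong to other copies. Both match the CTCF letters, and CTCF itself was not measured.

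Accessibility at the bound unchanged peaks ran over a wide range of levels. Scaled ATAC reads had a median of 68.3 in WT (quartiles 34.1 and 150) and of 73.0 in mCdx2-OE (quartiles 39.1 and 163). The bound opened peaks, by the construction of the groups, had medians of 10.6 in WT and 57.4 in mCdx2-OE. The median log2 ratio of the bound unchanged peaks was 0.21, against -0.08 for the 50259 unchanged peaks without a Cdx2 peak. A ratio above 0 was seen in 3134 peaks (62.3%), against 45.2% of the unchanged peaks without a Cdx2 peak. The rule used this ratio and its limits bound it, so these shares are a description only. With the counts centred on the median ATAC peak, which had a log2 ratio of -0.15, the median of the then 4732 bound unchanged peaks was 0.26.

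**Figure D1:**
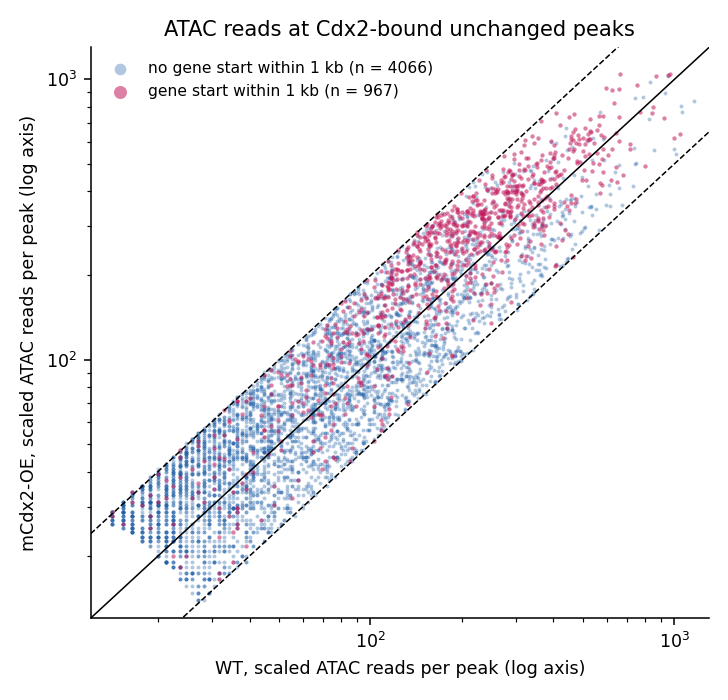
Scaled ATAC reads in WT (horizontal, log axis) and in mCdx2-OE (vertical, log axis) for the 5033 bound unchanged peaks, with points coloured by whether a gene start lay within 1 kb. The solid line marks equal reads and the dashed lines mark 2-fold. Points with a gene start (n = 967) sit at higher reads, with a WT median of 186 against 54.2 for the others (n = 4066).

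Staying within 2-fold did not mean equal reads. From the reads alone, the 95% exact binomial interval of the ratio held 0 on the log2 scale in 2760 peaks (54.8%), lay wholly above 0 in 1503 (29.9%) and wholly below 0 in 770 (15.3%). These counts rest on scaling to the library totals, with the median ATAC peak at a log2 ratio of -0.15. They use the ratio that the rule limited, so they are a description only. The interval lay wholly inside the 2-fold limits in 2512 peaks (49.9%), so for the rest the reads did not fix on which side of a limit the peak lay. The values at the limits show the same. Just inside the upper limit, chr3:85993193-85995072 had 110 reads in WT and 220 in mCdx2-OE (log2 ratio 0.999), and chr16:36199185-36200363 had 24.7 and 50.4 (0.999). Just outside it were chr10:25111316-25112256 with 41.2 and 83.4 (1.00004) and chr15:7712565-7713712 with 74.2 and 149 (1.001). Just inside the lower limit, chr8:118648794-118649334 had 60.1 and 29.5 and chr11:63532895-63534298 had 199 and 99.1, with ratios of -0.999 for both. Just outside it, chr17:76111009-76112493 had 213 and 106 (-1.001) and chr17:74138124-74139024 had 104 and 51.3 (-1.001). At the sum of 40, chr8:36606804-36607451 and chr11:46160534-46161061 each had 20.02 reads in WT and 19.99 in mCdx2-OE, and chr11:89071587-89072087 and chr12:116437517-116438036, at 16.5 and 23.5, fell below it.

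The 5033 peaks were spread over all 19 chromosomes, and 2 of these stood apart. On chromosome 3, 28.3% of the bound peaks were unchanged (288 of 1017), and on chromosome 16 it was 32.8% (241 of 734). On the other chromosomes it ranged from 39.6% to 47.5%. On these 2 chromosomes the ATAC peaks without a Cdx2 peak also had the highest ratios, with median log2 ratios of 0.18 on chromosome 3 and 0.05 on chromosome 16, against -0.41 to -0.23 on the others. The part of this shift in which peaks counted as unchanged was not tested. Without both chromosomes, 4504 peaks (43.6% of bound) were unchanged.

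Bound unchanged peaks were longer than bound opened peaks. The median length was 1073 bp (quartiles 727 and 1656), against 720 bp for the opened and 871 bp for the closed bound peaks. Their centre lay in an intron in 50.1%, in an exon in 13.1% and outside genes in 36.8%, against 55.4%, 5.65% and 39.0% for the bound opened peaks. A gene start lay within 1 kb of 967 peaks (19.2%, interval 18.1 to 20.3). This share was 4.99% (4.49 to 5.55) for the bound opened peaks, 4.08% (2.68 to 6.15) for the bound closed peaks and 26.4% (26.1 to 26.8) for the unchanged peaks without a Cdx2 peak. The share depended on the overlap asked for. Where Cdx2 peaks covered at least 50% of the ATAC peak it was 4.53% of 972 bound unchanged peaks, against 2.71% of the bound opened peaks. The median GC content of the central 300 bp, 47.3%, lay between 43.3% in the bound opened peaks and 52.7% in the unbound unchanged peaks.

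**Figure D2:**
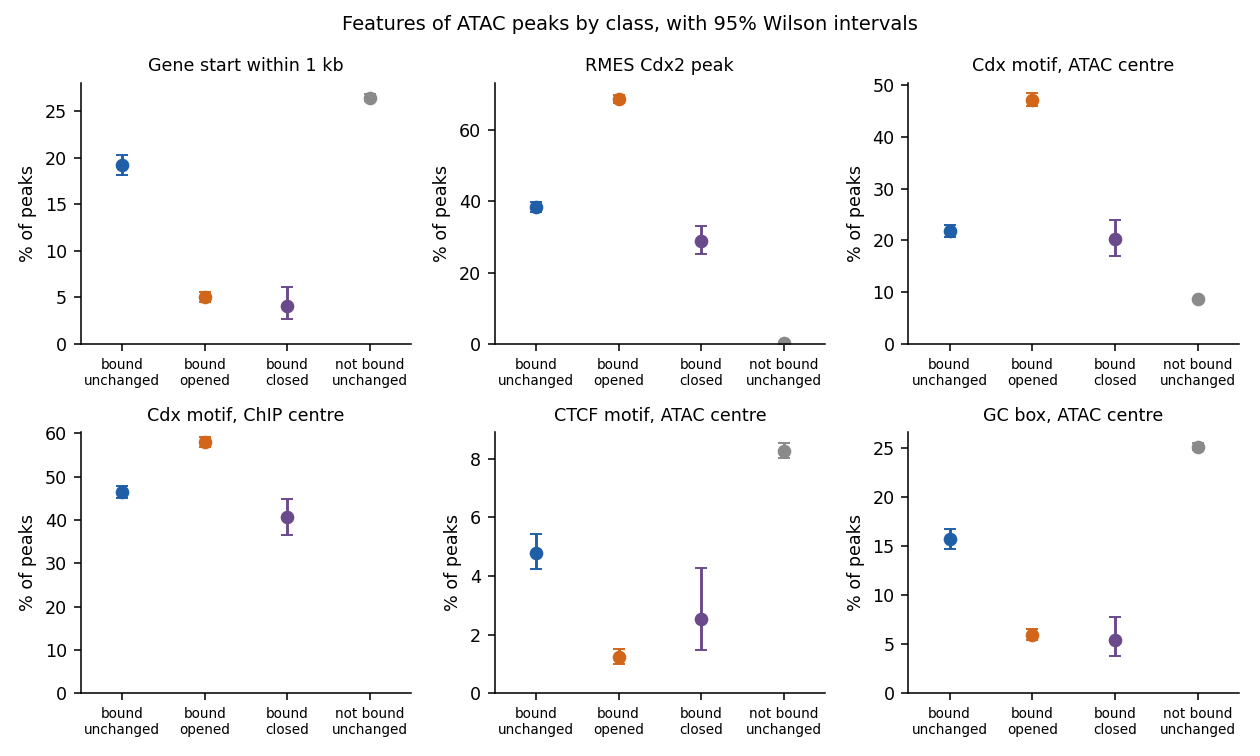
Share of ATAC peaks (vertical, %) with a given feature, for bound unchanged (n = 5033), bound opened (n = 6527), bound closed (n = 515) and unbound unchanged peaks (n = 50259), with 95% Wilson intervals as bars. The panel of the ChIP centre counts ChIP peaks instead and has no value for peaks without one. Bound unchanged peaks lie between bound opened and unbound unchanged peaks in all panels with 4 values.

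The Cdx2 signal at these peaks was lower than at the bound opened peaks. The median was 87.8 scaled ChIP reads (both libraries summed) and 227 reads per kb of Cdx2 peak (quartiles 189 and 308). In the bound opened peaks it was 192 reads and 366 per kb, and in the bound closed peaks 69.2 reads and 207 per kb. Cdx2 peaks outside all ATAC peaks (n = 68777) had 216 reads per kb. The rule used only whether a Cdx2 peak was present, not its height. When the 12075 bound peaks were divided into 4 groups of near-equal size by ChIP reads, the share that was unchanged was 62.8% (61.1 to 64.5) in the lowest group, 53.7% (51.9 to 55.5) in the second, 36.1% (34.4 to 37.8) in the third and 14.1% (12.9 to 15.4) in the highest. In the highest group 427 peaks stayed unchanged, each with at least 249 scaled ChIP reads. Divided by WT ATAC reads, 0 of the 2907 peaks in the lowest group were unchanged, which the limits of the rule fix, and 81.7% were in the highest.

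**Figure D3:**
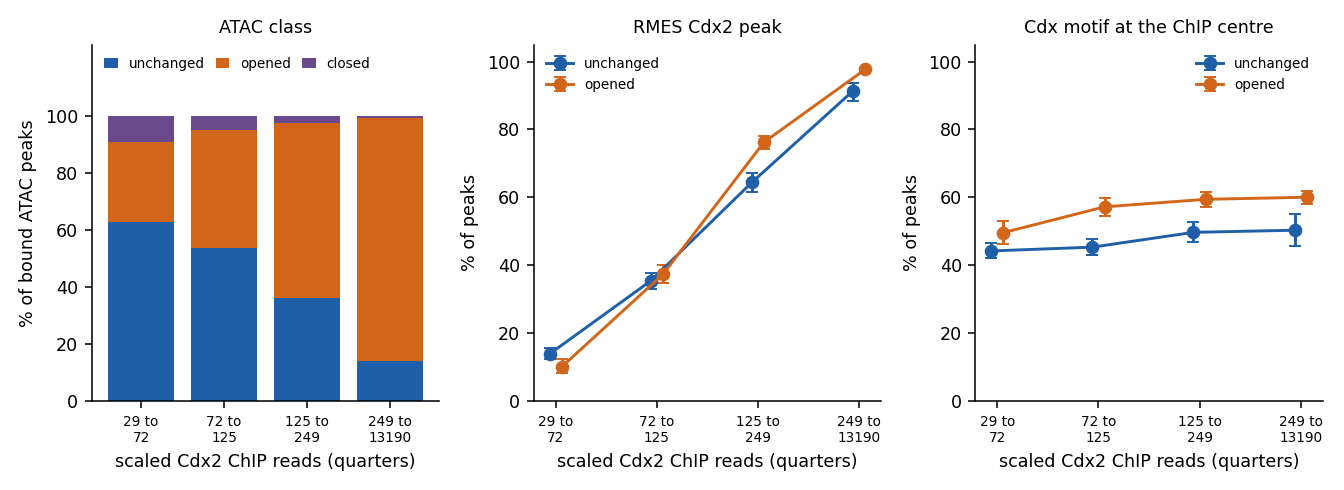
Bound ATAC peaks in 4 groups by scaled Cdx2 ChIP reads (horizontal). Left, the share unchanged, opened and closed (stacked, %), with unchanged falling from 62.8% to 14.1%. Middle and right, the share with a Cdx2 peak in RMES cells and with a Cdx motif at the ChIP centre, for unchanged and opened peaks, with 95% Wilson intervals.

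The 5 bound unchanged peaks with most ChIP reads were chr15:75085414-75087108, chr5:108092655-108093521, chr10:86769173-86773925, chr14:122467033-122469693 and chr14:23168720-23169652. The first, between genes with Ly6c2 nearest, had 1242 scaled mCdx2 and 1383 rCdx2 ChIP reads and 1008 ATAC reads in WT against 541 in mCdx2-OE (log2 ratio -0.90). Of the 31-base stretches of its central window, 40.0% occurred more than once in the genome. The second, in an intron of Mtf2, a Polycomb-associated gene, had 727 and 722 ChIP reads and 48.3 ATAC reads in WT against 93.9 in mCdx2-OE (0.94). The fourth, 1356 bp from the start of Zic5, a zinc-finger gene of neural development, had 504 and 558 ChIP reads and 195 against 318 ATAC reads (0.70). The fifth, between genes, had 541 and 493 ChIP reads and 38.9 against 51.3 ATAC reads (0.39). None of these 5 had a Cdx motif in the central window of the ATAC peak, and 3 had at least 1 at the ChIP centre. Each had a Cdx2 peak in RMES cells.

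The 5 with most ATAC reads were of another kind. chr7:25263772-25268767 at the start of Cic had 967 ATAC reads in WT and 1042 in mCdx2-OE (log2 ratio 0.11), with 67.0 ChIP reads. chr4:55473699-55482377, between genes with Klf4 as the nearest start at 50089 bp, had 1157 and 834 ATAC reads (-0.47) and 202 ChIP reads. chr5:123134463-123140344, in the noncoding genes AI480526 and Gm26745 near Rhof, had 950 and 1040 (0.13) and 168 ChIP reads. chr9:123461779-123462218, in Lars2, a mitochondrial leucyl-tRNA synthetase gene, had 953 and 1026 (0.11) and 476 ChIP reads, and 54.1% of the 31-base stretches of its central window occurred more than once in the genome. chr19:5487622-5492041 at the start of Mus81 and Cfl1 had 867 and 1026 (0.24) and 93.2 ChIP reads. In the central windows of the Cic and Mus81 peaks these shares were 50.0% and 53.3%. In 4 of the 5 regions the Cdx2 peaks covered under 10% of the ATAC peak. The Lars2 peak, 440 bp long, was covered to 80%.

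Position within the open region differed between bound unchanged and bound opened peaks. Bound closed peaks had values near those of the bound unchanged. Cdx2 peaks covered a median of 29.5% of a bound unchanged peak (quartiles 17.8 and 45.02), against 61.6% of a bound opened peak. In a bound closed peak it was 28.9%. At least 50% was covered in 972 bound unchanged peaks (19.3%), in 66.8% of the bound opened and 19.4% of the bound closed peaks. The centre of the strongest Cdx2 peak lay a median of 249 bp from the ATAC centre. This was 97.5 bp in the bound opened and 237 bp in the bound closed peaks. Relative to the distance from centre to edge of the ATAC peak, these medians were, in that order, 46.7%, 26.5% and 51.1%. Longer ATAC peaks gave larger distances in the unchanged and opened classes, and within each length class the bound unchanged peaks had the larger median. It was 126 bp against 77.0 bp for peaks under 600 bp, 159 against 87.5 bp from 600 to 1000 bp, 327 against 178.5 bp from 1000 to 2000 bp, and 678 against 593 bp above. Nearly all bound unchanged peaks (4926) held 1 Cdx2 peak, 102 held 2 and 5 held more. Of the 5134 Cdx2 peaks involved, 8 also touched a bound opened peak.

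The 967 bound unchanged peaks near a gene start formed a group of their own in length and position. Their median length was 1811 bp, their median GC content 58.0%, and their ATAC reads had medians of 186 in WT and 249 in mCdx2-OE. The other 4066 had a median length of 953 bp, a GC content of 46.3% and medians of 54.2 and 60.0 reads. ChIP reads per kb were alike, with medians of 222 and 229. In the peaks near gene starts the Cdx2 centre lay a median of 568 bp from the ATAC centre, against 202.5 bp in the others. Of 713 peaks with exactly 1 gene start within 1 kb, 404 (56.7%, interval 53.0 to 60.3) had the Cdx2 centre upstream of the start and 309 downstream. The median distance between Cdx2 centre and gene start was 720 bp (quartiles 406 and 1114), and 126 peaks (17.7%) had it within 300 bp.

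**Figure D4:**
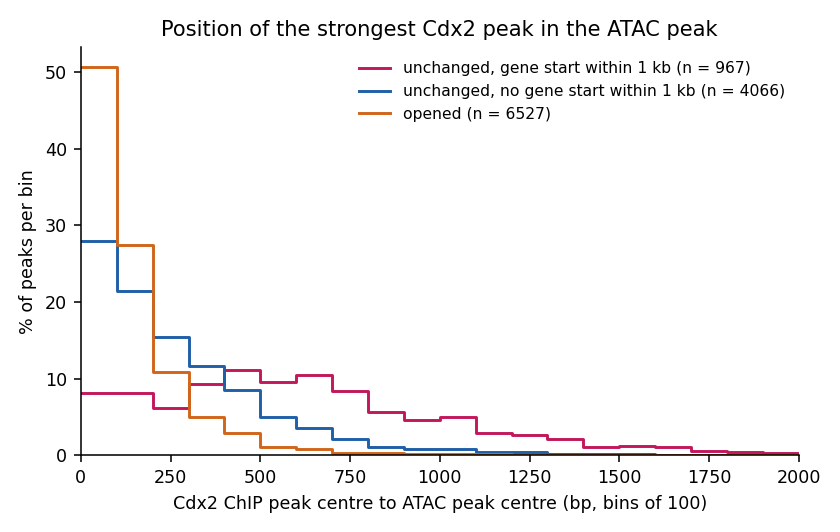
Distance from the centre of the strongest Cdx2 peak to the centre of the ATAC peak (horizontal, bp, bins of 100), as a share of peaks per bin (vertical, %), for bound unchanged peaks with and without a gene start within 1 kb and for bound opened peaks. The medians are 568, 202.5 and 97.5 bp. Bound closed peaks, which are not drawn, had a median of 237 bp.

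The Cdx motif was searched as TTTATNG on both strands in 300 bp windows. At the ATAC centre, 1098 bound unchanged peaks (21.8%, interval 20.7 to 22.98) held it, against 47.1% (45.9 to 48.4) of the bound opened, 20.2% (17.0 to 23.9) of the bound closed and 8.70% (8.46 to 8.95) of the unbound unchanged peaks. The share over all ATAC peaks was 14.3%. At the centre of the Cdx2 peaks the classes were closer, at 46.5% (45.1 to 47.8) for the bound unchanged, 57.9% (56.7 to 59.1) for the bound opened and 40.6% (36.4 to 44.9) for the bound closed peaks, with 54.7% over all Cdx2 peaks. The share at the ChIP centre was similar with and without a gene start, at 46.8% (43.7 to 50.0) in peaks within 1 kb of one and 46.2% (44.7 to 47.7) in the others. At the ATAC centre it was 9.62% and 24.7%. At least 2 Cdx motifs at the ChIP centre were found in 10.8% of the Cdx2 peaks of bound unchanged regions and in 19.2% of those of bound opened regions. In each of the 4 groups by ChIP reads the share with a Cdx motif at the ChIP centre was also lower in the bound unchanged peaks, from 44.3% (42.03 to 46.5) against 49.6% (46.3 to 53.002) in the lowest, where the intervals overlapped, to 50.4% (45.6 to 55.1) against 60.1% (58.2 to 61.9) in the highest group.

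Other motifs gave a mixed picture. The CTCF motif was present in 241 bound unchanged peaks (4.79%, interval 4.23 to 5.41), against 1.23% of the bound opened and 8.28% of the unbound unchanged peaks, with 6.79% over all ATAC peaks. The GC box GGGCGG, read by Sp and Klf proteins, was present in 15.8%, 5.98% and 25.2% of these classes and in 17.1% of all. The octamer ATGCAAAT, read by Oct4 (Pou5f1), was present in 3.30% (2.84 to 3.83) of the bound unchanged, 2.24% (1.91 to 2.62) of the bound opened and 1.81% (1.70 to 1.93) of the unbound unchanged peaks. It reached 5.83% (4.11 to 8.19) in the bound closed peaks, and 2.47% over all. The Esrr motif AAGGTCA was present in 8.80% (8.05 to 9.62) of the bound unchanged and 8.17% (7.53 to 8.86) of the bound opened peaks. It was at 11.7% (9.16 to 14.7) of the bound closed and 5.98% of the unbound unchanged peaks (7.64% of all). The AP-1 motif TGANTCA was at 9.36% of bound unchanged, 10.4% of bound opened and 8.36% of unbound unchanged peaks (9.36% of all). In the same order, the Tead motif GGAATG was at 19.6%, 22.8% and 17.2% (18.95% of all). A match of letters is a description and not a measured binding site.

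The RMES ChIP libraries were not used by the rule and asked whether the same regions held Cdx2 in another cell. A Cdx2 peak in RMES cells overlapped 1930 bound unchanged peaks (38.3%, interval 37.0 to 39.7). This share was 68.6% (67.5 to 69.7) for the bound opened, 28.9% (25.2 to 33.0) for the bound closed and 0.289% (0.245 to 0.339) for the unbound unchanged peaks, with 8.89% over all ATAC peaks. The share rose with mESC ChIP reads in both classes. In the lowest of the 4 groups by ChIP reads it was 13.9% (12.4 to 15.6) for the bound unchanged and 10.1% (8.27 to 12.3) for the bound opened peaks. It was 35.4% (33.1 to 37.8) and 37.3% (34.7 to 40.0) in the second group, 64.4% (61.5 to 67.2) and 76.3% (74.3 to 78.1) in the third, and 91.3% (88.3 to 93.6) and 97.7% (97.01 to 98.2) in the highest. Within these groups the bound unchanged peaks thus had the higher share in the lowest group and the lower share in the upper 2, while the intervals overlapped in the second. The groups are wide, and ChIP reads could still differ between the classes inside each. Only reads in peaks and given to the mouse genome were counted in the RMES libraries, and these totals were below those of the mESC libraries. The part of this in the values was not tested.

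Bound unchanged peaks with a Cdx2 peak in RMES cells had more mESC ChIP reads, with a median of 137 against 69.4 for those without. Their median ATAC log2 ratio was 0.31, against 0.14. A gene start lay within 1 kb of 22.02% and 17.5%, and a Cdx motif at the ATAC centre of 22.5% and 21.4%. In the RMES libraries the 1930 peaks had a median of 70.7 scaled reads, against 77.6 over all RMES peaks of the mouse chromosomes 1 to 19. The first value sums all RMES peaks in an ATAC peak, and the second is per single RMES peak.

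Mouse and rat Cdx2 gave near-equal reads at these regions. The median log2 ratio of mCdx2 over rCdx2 ChIP reads was -0.06 (quartiles -0.29 and 0.16), against -0.01 in the bound opened, -0.13 in the bound closed regions and -0.01 over all Cdx2 peaks. Without scaling of the ChIP libraries the median was 0.10, so the side of 0 on which it lay was set by the scaling. Of the 5134 Cdx2 peaks, 16 had over 2-fold more mCdx2 reads (0.312%, against 0.441% of all 86450 peaks) and 54 had over 2-fold more rCdx2 reads (1.05%, interval 0.807 to 1.37, against 0.47% of all). On the rCdx2 side the share was 2.12% (1.19 to 3.75) at bound closed and 0.341% (0.227 to 0.511) at bound opened regions. In RMES cells the median ratio at the 1930 peaks was 0.07. There 24 (1.24%, against 1% of all) were over 2-fold stronger with mCdx2 and 6 (0.311%, against 1.1% of all) with rCdx2. The RMES values of these regions sum the reads of all RMES peaks in an ATAC peak. The shares of all are per single RMES peak, and the mESC counts above are per Cdx2 peak. The side on which more peaks passed 2-fold thus differed between mESCs and RMES cells, which was not tested. The columns were assigned to mCdx2 and rCdx2 from abbreviations in their names.

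RNA-seq asked what genes with such a peak at their start did after induction. Within 1 kb, 1263 genes had a bound unchanged peak, 986 of them were in the count tables and 891 passed the filter on low counts. Against WT in mCdx2-OE, 206 of the 891 passed an adjusted p of 0.05 and a 2-fold change (23.1%, interval 20.5 to 26.0), 89 higher and 117 lower. Over all 16000 genes tested the share was 33.4%, with 18.4% higher and 15% lower. The shares of the 891 were 9.99% higher and 13.1% lower. Among 11017 tested genes whose start had an unchanged peak without a Cdx2 peak and no bound peak, 29.6% (28.8 to 30.5) passed, 15.5% higher and 14.1% lower. Among 170 tested genes with a bound opened peak and no bound unchanged peak, 35.9% (29.1 to 43.3) passed, 28.2% higher and 7.65% lower. The median log2 fold change was -0.10 for the 891 genes, -0.03 over all genes and 0.34 for the 170. The interval of the 891 genes lay below the share over all genes, and no test between these groups of genes was run. In bulk RNA, fewer cells of a type and less RNA per cell cannot be told apart.

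In rCdx2-OE, which was set against the same WT libraries, 214 of the 891 genes passed (24.0%, against 34.5% of all genes), 98 higher (19% of all) and 116 lower (15.4% of all). At an adjusted p of 0.05 with any fold, 591 of the 891 passed in mCdx2-OE (66.3%, against 69.7% of all genes) and 602 in rCdx2-OE (67.6%, against 70.6%). The median log2 fold change was -0.12, against -0.04 over all genes. No ATAC library of rCdx2-OE was used here, so the regions are unchanged only with respect to mCdx2.

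Of 18 genes of naive and core pluripotency, 3 had a bound unchanged peak within 1 kb of the start, Klf2, Klf4 and Lin28a. In the whole list 7 of 18 tested genes fell past both thresholds by edgeR in mCdx2-OE (background 15% lower). Klf2, a Krüppel-like factor of naive pluripotency, was at 299 and 297 CPM in WT, 134 and 132 in mCdx2-OE and 133 and 130 in rCdx2-OE. The log2 fold change was -1.16 (SE 0.09, adjusted p = 6.1e-09 by edgeR) in mCdx2-OE. Its peak upstream, chr8:72314407-72318286, had 406 ATAC reads in WT and 254 in mCdx2-OE (log2 ratio -0.68). Lin28a, which encodes an RNA-binding protein that blocks let-7 maturation, was at 314 and 320 CPM in WT and at 67.2 and 61.3 in mCdx2-OE (log2 fold change -2.30, SE 0.09, adjusted p = 2.1e-12 by edgeR). In rCdx2-OE it was at 72.4 and 64.5 CPM. The peak over its start, chr4:134016177-134019815, had 219 and 248 ATAC reads (0.18), with a counting interval that held 0 (-0.09 to 0.45). Klf4, a Krüppel-like factor and reprogramming factor, was higher, at 131 and 140 CPM in WT and 194 and 211 in mCdx2-OE (log2 fold change 0.58, SE 0.07, adjusted p = 1.7e-06 by edgeR), and did not reach 2-fold. Its peak chr4:55529165-55535019 had 485 and 587 ATAC reads (0.28), with 473 ChIP reads placed 2642 bp from the ATAC centre. For all 3 genes the WT and mCdx2-OE libraries did not overlap. With 2 libraries per group this is not particular to them, as 69.7% of all genes passed an adjusted p of 0.05 by edgeR at any fold. The share of all genes without overlap is not given here.

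Of 19 trophoblast genes, Eomes was the only one with a bound unchanged peak at its start, and in the whole list 12 of 18 tested genes rose and 2 fell past both thresholds in mCdx2-OE (background 18.4% higher and 15% lower). Eomes encodes a T-box factor of trophoblast stem cells. It was at 7.81 and 8.57 CPM in WT and 4.98 and 4.75 in mCdx2-OE (log2 fold change -0.75, SE 0.14, adjusted p = 0.00015 by edgeR), which did not reach 2-fold. In rCdx2-OE it was at 3.08 and 4.11 CPM (-1.22, SE 0.14, adjusted p = 1.4e-06 by edgeR), past both thresholds. The peak over its start, chr9:118476539-118479964, had 253 and 200 ATAC reads (log2 ratio -0.34) and 95.4 ChIP reads.

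Of 39 Hox genes, which set position along the body axis, 3 had a bound unchanged peak at their start and 7 a bound opened peak without one. In the whole list 31 of 35 tested genes rose past both thresholds by edgeR (background 18.4% higher). Hoxb4 was at 0.283 and 0.274 CPM in WT, 2.51 and 3.12 in mCdx2-OE and 3.499 and 2.71 in rCdx2-OE (log2 fold change 3.30, SE 0.44, adjusted p = 5.2e-06 by edgeR for mCdx2-OE). Hoxb9 was at 1.87 and 2.19 CPM in WT, 8.36 and 7.35 in mCdx2-OE and 7.84 and 9.31 in rCdx2-OE (1.95, SE 0.22, adjusted p = 8e-07 by edgeR for mCdx2-OE). Both rose from low levels while their peaks stayed within 2-fold. Their ATAC reads were still higher in mCdx2-OE, with counting intervals of the log2 ratio of 0.20 to 0.99 (Hoxb4) and 0.15 to 0.65 (Hoxb9). Without scaling of the ATAC counts these ratios were 1.02 and 0.83, so Hoxb4 then lay past the limit. The Hoxb4 peak, chr11:96318235-96320149 over its coding exon, had 95.4 ATAC reads in WT and 143 in mCdx2-OE (log2 ratio 0.58), 401 ChIP reads and 3 Cdx motifs at the ChIP centre, in an intron of the gene. The Hoxb9 peak, chr11:96269643-96273124, had 244 and 322 (0.40), with 116 ChIP reads and 2 Cdx motifs at the ChIP centre. Hoxc12 was at 0.992 and 0.857 CPM in WT and 0.627 and 1.37 in mCdx2-OE, with overlapping groups (log2 fold change 0.02, SE 0.35, adjusted p = 0.954 by edgeR). Its peak chr15:102935599-102937726 had 89.5 and 122.5 ATAC reads (0.45) and 201 ChIP reads.

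Of 17 genes of signalling feedback, Dusp6 and Nodal had a bound unchanged peak at their start, and in the whole list 1 of 17 tested genes rose and 5 fell past both thresholds (background 18.4% higher and 15% lower). Dusp6 encodes a phosphatase that is induced by and acts on ERK. It was at 28.2 CPM in both WT libraries, at 1.76 and 2.54 in mCdx2-OE and at 2.27 and 3.23 in rCdx2-OE (log2 fold change -3.75, SE 0.23, adjusted p = 6.5e-10 by edgeR for mCdx2-OE). Its peak chr10:99260989-99264939 had 367 ATAC reads in WT and 372 in mCdx2-OE, a log2 ratio of 0.02 with a counting interval of -0.20 to 0.23. RNA thus fell in both overexpression groups, and the ATAC reads of the peak were near equal in WT and mCdx2-OE. For rCdx2-OE there was no ATAC library to compare. Nodal encodes a TGF-beta ligand. It was at 65.7 and 65.2 CPM in WT and 60.4 and 50.4 in mCdx2-OE (-0.24, SE 0.11, adjusted p = 0.0751 by edgeR), while the peak over its start had a log2 ATAC ratio of -0.70 (interval -0.86 to -0.54).

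In the remaining lists few genes had such a peak. Of 14 Polycomb genes it was Jarid2, a partner of the PRC2 complex, at 347 and 341 CPM in WT and 406 and 389 in mCdx2-OE (log2 fold change 0.21, SE 0.06, adjusted p = 0.00352 by edgeR, under 2-fold). Of 16 housekeeping genes it was Ppia, which encodes a cyclophilin, at 1563 and 1645 CPM in WT and 936 and 1138 in mCdx2-OE (-0.63, SE 0.10, adjusted p = 2.4e-05 by edgeR, under 2-fold). In the whole Polycomb list 2 of 14 tested genes rose and 3 fell past both thresholds, and in the housekeeping list 1 of 16 rose and 1 fell, against a background of 18.4% higher and 15% lower. The list of 11 genes of CTCF and cohesin had no gene with such a peak. The Jarid2 peak had 357 and 423 ATAC reads (0.25) and the Ppia peak 467 and 567 (0.28).

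The 3 largest rises in mCdx2-OE among genes with a bound unchanged peak and a mean of at least 50 counts were those of Dsp, Dhrs3 and Snap91. Dsp encodes desmoplakin of epithelial cell junctions. It was at 4.68 and 5.38 CPM in WT and 61.9 and 58.2 in mCdx2-OE (log2 fold change 3.58, SE 0.11, adjusted p = 2.5e-13 by edgeR). Its peak chr13:38150409-38152996 had 135 and 211 ATAC reads (0.64) and 40.6 ChIP reads, near the lowest of all bound unchanged peaks (30.1). Dhrs3 encodes a retinaldehyde reductase of retinoid metabolism. It was at 1.06 and 1.28 CPM in WT and 13.05 and 11.7 in mCdx2-OE (3.39, SE 0.25, adjusted p = 4.8e-09 by edgeR), with 206 and 199 ATAC reads (-0.05) at chr4:144890507-144893055, a peak with 2 Cdx motifs at its centre. Snap91, a neuronal clathrin adaptor gene, was at 1.12 and 0.948 CPM in WT and 9.12 and 11.9 in mCdx2-OE (3.33, SE 0.20, adjusted p = 4.1e-10 by edgeR), with 192 and 346 ATAC reads (0.85). The counting intervals of the ATAC log2 ratio were 0.32 to 0.97 (Dsp), -0.34 to 0.24 (Dhrs3) and 0.58 to 1.12 (Snap91). Without scaling of the ATAC counts these ratios were 1.07, 0.39 and 1.28. In rCdx2-OE the log2 fold changes of RNA were 3.78, 3.53 and 3.41.

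**Figure D5:**
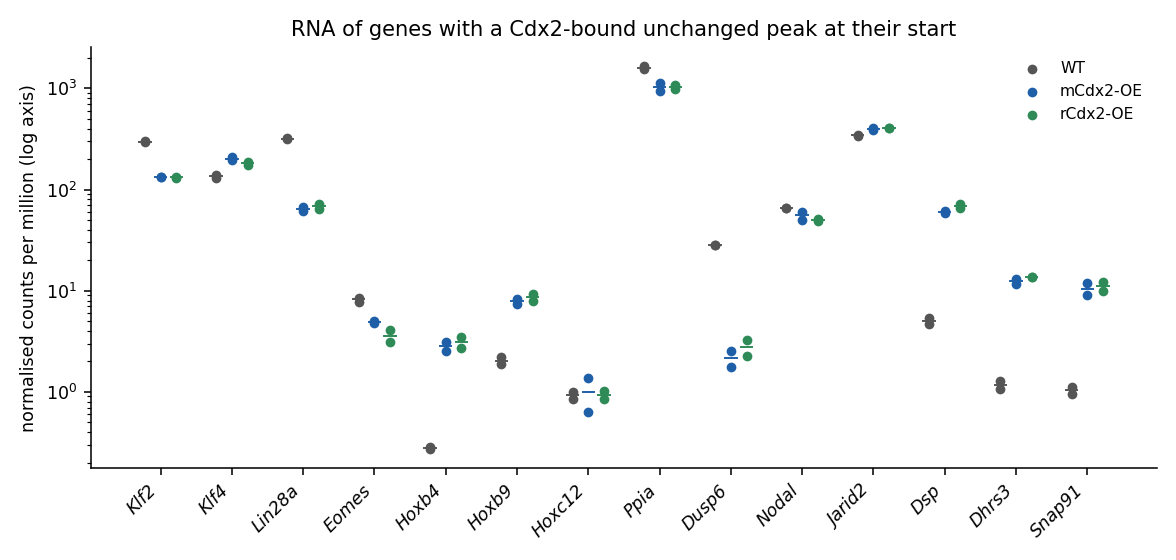
RNA of named genes with a bound unchanged peak within 1 kb of their start, as normalised CPM (vertical, log axis), with 1 point per library (2 each of WT, mCdx2-OE and rCdx2-OE) and a bar at the mean. Lin28a, Klf2 and Dusp6 lie lower and Hoxb4, Hoxb9, Dsp, Dhrs3 and Snap91 higher in both overexpression groups than in WT. Eomes, Ppia and Nodal also lie lower and Klf4 and Jarid2 higher in both, by under 2-fold in mCdx2-OE. Hoxc12 overlaps with WT. The 3 largest falls are not drawn.

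The 3 largest falls were those of Gm37401, D430001F17Rik and Gm15884, all annotated as antisense RNAs that overlap other genes. Gm37401 had 322 and 344 counts in WT and 0 in both mCdx2-OE libraries, at least 26.5-fold lower when set against 3 counts per library. D430001F17Rik had 124 and 125 counts in WT and 0 in both (at least 9.93-fold lower). Gm15884 had 1441 and 1571 counts in WT and 9 and 0 in mCdx2-OE. Gm37401 and D430001F17Rik overlap Rhoa and Atp5o, which lie on the opposite strand, and Gm15884 overlaps gene records on both strands, Phb2 among them. The labels name a stranded kit and the methods state counting by strand, and the strand of the reads in each library was not checked here. Of the 117 genes that fell, 66 (56.4%, interval 47.4 to 65.1) overlapped another gene record, against 51.6% of the 891.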

How the data were processed

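Read counts per peak and per gene were deposited by the authors. Per the study's methods, reads were aligned with Bowtie2 (ATAC and ChIP) or STAR (RNA), duplicates and low-quality alignments were removed, MACS2 peaks were called on merged libraries and reads were counted per library. The submitters' processing notes name STAR 2.7.0d, Bowtie2 2.3.4.3, cutadapt 2.6 and Picard 2.6.0, and positions are on mm10. The regions and all gene lists were chosen with earlier results of these data known.

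Counts of each assay were scaled to the mean library total and 1 was added before log2. Overlaps, 300 bp windows and gene starts were computed with Python 3.11.15, pysam 0.24.0, bedtools 2.31.1 and the RefSeq genome sequence of GRCm38. RNA was tested with edgeR 4.0.16 in R 4.3.3 (TMM, filterByExpr, quasi-likelihood test) in 1 model of the 20 mESC libraries, with Benjamini-Hochberg adjustment over 16000 genes, an adjusted p of 0.05 and a 2-fold change. The script was tested on simulated data. DESeq2 1.42.0 was an alternative. The labels do not say that the 2 RNA libraries of a group came from separate cultures, so p-values measure only the spread between libraries. This spread was estimated over all 20 mESC libraries, the mutants among them, and not only over the groups compared.

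Regions were named as the 5 with most ChIP reads, the 5 with most ATAC reads and the 2 on each side of each limit. Genes were named as members of 7 fixed lists with a bound unchanged peak within 1 kb of their start, and as the 3 largest rises and falls with a mean of at least 50 counts and the same direction in both replicates. Sequences were named as the 3 regions with most ChIP reads and a Cdx motif and the 2 with most ATAC reads and a CTCF motif.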

Additional observations from a re-analysis of the deposited data

How the results depend on the processing

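The limits of the rule moved which peaks counted. A sum of at least 100 left 3185 bound unchanged peaks, 1.5-fold limits left 3194, and Cdx2 peaks that covered at least 50% of the ATAC peak left 972. With a sum of 100, the share with an RMES peak was 37.0%, with a gene start 28.2%, with a Cdx motif 18.2% and with a CTCF motif 3.01%, the median ChIP level was 232 reads per kb and the median log2 ratio of mCdx2 to rCdx2 was -0.0903. With 50% covered these values were 47.9%, 4.53%, 37.7%, 7.41%, 244 reads per kb and -0.0483, and the RMES share of the opened peaks was 79.7%. Without scaling of the ATAC counts they were 36.1% (RMES), 16.8% (gene start), 20.6% (Cdx motif) and 222 reads per kb, over 4076 peaks. A sum of 20 gave 16.8% with a gene start and 23.6% with a Cdx motif, and 1.5-fold limits gave 20.3% with a Cdx motif. RMES peaks that covered at least 50% of the ATAC peak were found in 4.61%. Gene starts within 500 bp and 5 kb gave 17.8% and 33.1%. Windows of 200 and 500 bp gave 15.1% and 32.9% with a Cdx motif and 3.28% and 7.21% with a CTCF motif. Without scaling of the ChIP counts the median log2 ratio of mCdx2 to rCdx2 turned to 0.10. Leaving out chromosomes 3 and 16, an alternative chosen after seeing the data, gave 39.0% with an RMES peak and 22.2% with a Cdx motif.

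Without a fold threshold 591 of the 891 genes with a bound unchanged peak passed in mCdx2-OE (249 higher, 342 lower). In rCdx2-OE it was 602 (247 higher, 355 lower). Over all genes tested 69.7% and 70.6% passed, and their split by direction is not given here. With gene starts within 5 kb, which takes in more genes, it was 381 (168 higher, 213 lower) and 393 (182 higher, 211 lower). The number of genes tested within 5 kb is not given here, so these counts cannot be set against the 33.4% and 34.5% of all genes that passed at 2-fold. Leaving out 1 library at a time gave 200 to 213 genes in mCdx2-OE (86 to 90 higher, 110 to 125 lower) and 213 to 235 in rCdx2-OE (96 to 102 higher, 116 to 136 lower). Correlations between the deviations of same-numbered libraries ran from -0.14 to 0.45 over 10 groups, and not every pair was over 0.1, so the numbers were not used as pairs. The libraries numbered 2 were deposited in a count table of their own, and what they share was not tested further. With the replicate block, 208 genes passed in mCdx2-OE and 214 in rCdx2-OE. With only the 2 groups compared in the model, it was 220 in mCdx2-OE and 229 in rCdx2-OE. The adjusted p by edgeR in mCdx2-OE was then larger, at 7.23e-05 for Dsp, 0.000102 for Lin28a and 0.000254 for Klf2.

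With 1 ATAC and 1 ChIP library per condition, no spread between replicates is known for any peak, and a batch and the condition cannot be told apart. The WT RNA libraries were deeper than the others, so low genes at 0 in mCdx2-OE were seen at lower depth there.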

Other observations

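A bound opened peak lay within 10000 bp of 418 bound unchanged peaks (8.31%, interval 7.57 to 9.10), against 7.59% (7.36 to 7.82) of the unbound unchanged peaks. Within 20000 bp it was 17.7% (16.7 to 18.8) against 14.8% (14.5 to 15.1).

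The share with a Cdx2 peak in RMES cells varied little with the length of the ATAC peak. It was 38.4% for bound unchanged peaks under 600 bp, 38.3% from 600 to 1000 bp, 37.8% from 1000 to 2000 bp and 39.6% above. The CTCF motif was also found at the centre of 257 Cdx2 peaks of bound unchanged regions (5.01%, interval 4.44 to 5.64). At bound closed regions the share was near equal, at 5% (3.43 to 7.23). It was 1.28% (1.03 to 1.57) at bound opened regions and 1.83% over all Cdx2 peaks. Most bound unchanged peaks were of unique sequence, with no repeated 31-base stretch in the central window of 3745 (74.4%, interval 73.2 to 75.6). Over 50% was repeated in 149 (2.96%, interval 2.53 to 3.47). In the bound opened peaks these shares were 80.7% (79.8 to 81.7) and 2.34% (2.00 to 2.74). Windows without any repeat were thus less frequent in the bound unchanged peaks, while the intervals for mostly repeated windows overlapped.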
